A study of Mus musculus with 9 samples.

Results

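Transcripts of 9 receptors of the tumor necrosis factor (TNF) receptor superfamily, Cd40, Tnfrsf1a, Tnfrsf1b, Tnfrsf11a, Fas, Ltbr, Tnfrsf14, Tnfrsf21 and Tnfrsf9, were measured in mouse bone marrow (BM)-derived Mϕs. The 9 were chosen by name, and their Ensembl identifiers were found in the deposited table, where each has 1 of 53379 gene rows. BM cells of C57BL/6 mice were cultured with CSF-1 (MCSF) at 10 ng/ml for 3 days, which turns BM progenitors into Mϕs, and then for 4 days in 1 of 3 conditions. Control Mϕs stayed in CSF-1 at 10 ng/ml, IL-4-treated Mϕs received CSF-1 together with IL-4 at 10 ng/ml, and IL-6-treated Mϕs received CSF-1 together with IL-6 at 100 ng/ml. Every group thus carried CSF-1. These doses and times come from the sample labels. The methods of the study give the same times and the same IL-6 dose, but 100 ng/ml for IL-4 as well. Its figure legends give another dose, equal for the 2 cytokines, and a shorter treatment. Which doses were used is not settled, so values of IL-6 against IL-4 compare either unequal or equal doses. Each condition has 3 libraries, and the column names use the same 3 replicate numbers in each. They do not say whether a number stands for the same mouse in every condition. The labels give no age or sex of the mice. Polyadenylated RNA was sequenced, and the study used it to ask how IL-6 shapes the immunosuppressive state of Mϕs.

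Receptors of the TNF superfamily bind trimeric ligands, most of them on the surface of other cells, through cysteine-rich repeats outside the membrane. One class, with TNF-R1 (Tnfrsf1a), Fas and death receptor 6 (Tnfrsf21), carries a death domain inside the cell that can recruit FADD or TRADD and lead to caspase activation. The other class, with CD40, TNF-R2 (Tnfrsf1b), RANK (Tnfrsf11a), the lymphotoxin β receptor (Ltbr), HVEM (Tnfrsf14) and 4-1BB (Tnfrsf9), binds TRAF adaptors and activates NF-κB and kinase cascades. In Mϕs, CD40 receives the signal of CD40 ligand on activated T cells, TNF receptors act on TNF that Mϕs themselves secrete, and RANK drives their differentiation into osteoclasts.

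The deposited values are FPKM, fragments per kilobase of exon and per 1000000 fragments, which set genes of different length on 1 scale. FPKM steps gave back whole fragments, and the libraries held 29988160 to 39909571 of them. The treatments left their marks, since Socs3, a STAT3 target, had 2.27 ± 0.653 FPKM in control, 2.56 ± 0.743 under IL-4 and 80.4 ± 5.42 under IL-6 (SD, n = 3), while Arg1 rose by 10.58 on the log2 scale under IL-4. All 8 Mϕ markers looked for, Adgre1, Csf1r and Cd68 among them, were above 0.5 FPKM in at least 1 library, and they summed to 16607 to 18883 FPKM in control, 6115 to 7100 under IL-4 and 20165 to 21266 under IL-6. Neutrophil and granulocyte markers (8 genes, led by S100a9) were present too. They summed to 4747 to 8519 FPKM in control, 2116 to 4061 under IL-4 and 7681 to 10711 under IL-6. Not all of them were higher under IL-6 than in control. The means of S100a8, S100a9, Ly6g, Mpo, Camp and Ngp were higher. Those of Retnlg (284 to 152 FPKM) and Elane (65.8 to 55.9 FPKM) were lower. In bulk RNA, fewer cells of a type and less RNA per cell cannot be told apart. The libraries fell into 2 sets by transcripts of intestinal Paneth and goblet cells (20 genes): the 3 control libraries and IL-4 #1 had sums of 49.7 to 76.7 FPKM, and IL-4 #2, IL-4 #3 and the IL-6 libraries had 0.0139 to 0.175. Controls lie in 1 set only and the IL-6 libraries in the other only, so set and IL-6 treatment cannot be told apart between those groups. A term for the set in the fit rests on IL-4 #1 against IL-4 #2 and #3. Calls of IL-6 against control that are kept or lost with that term therefore do not separate set from treatment. IL-4 #3 stood apart in scale, with a scale of 0.763, its median ratio to each gene's geometric mean, against 0.990 to 1.08 in the other libraries.

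The receptor genes lie on 6 chromosomes of GRCm38, some of them next to relatives. Ltbr (chr6:125306571-125313885, minus strand) and Tnfrsf1a (chr6:125349362-125362484, plus strand) are 35.5 kb apart and point away from each other. Tnfrsf1b (chr4:145213463-145246870) is 20.3 kb from Tnfrsf8, the gene of CD30, and Tnfrsf9 (chr4:150914562-150946102) and Tnfrsf14 (chr4:154921933-154928563) lie on the same chromosome. Cd40 is at chr2:165055627-165072948, Tnfrsf11a at chr1:105780718-105847981, Tnfrsf21 at chr17:43016555-43089189 and Fas at chr19:34290666-34327772. None of the 9 has exons that overlap those of another gene in the GENCODE M21 annotation. At most 4.25% of the 50-base stretches of a receptor's transcripts, in Tnfrsf14, also occur in transcripts of another gene.

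Promoters of 8 of the 9 receptors, in 9 windows because Tnfrsf9 has 2 starts, were found in RefSeq on GRCm38.p6, and no entry was found for Cd40. The 250 bases before each start were searched on both strands for the palindrome TTCNNNGAA, the core that STAT3 and other STATs bind, for TTCNNNNGAA, the wider form that STAT6 prefers, for ACGTG and GCGTG, the cores of the hypoxia response element, and for the NF-κB consensus. Shown are the windows of Fas and Tnfrsf1b, which were called in comparisons that involve IL-4 and hold a STAT form. Tnfrsf14, called for IL-6 against IL-4, held neither STAT form and is not shown. The window of Ltbr, which passed the test in no comparison, is shown as well. Every match is in capitals.
Fas, chr19:34290409-34290658, plus strand: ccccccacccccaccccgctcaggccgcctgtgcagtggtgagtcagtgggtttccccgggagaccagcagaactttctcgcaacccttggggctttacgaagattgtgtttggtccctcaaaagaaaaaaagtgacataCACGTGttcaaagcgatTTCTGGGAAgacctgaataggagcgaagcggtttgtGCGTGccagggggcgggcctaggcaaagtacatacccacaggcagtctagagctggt
Tnfrsf1b, chr4:145246871-145247120, minus strand: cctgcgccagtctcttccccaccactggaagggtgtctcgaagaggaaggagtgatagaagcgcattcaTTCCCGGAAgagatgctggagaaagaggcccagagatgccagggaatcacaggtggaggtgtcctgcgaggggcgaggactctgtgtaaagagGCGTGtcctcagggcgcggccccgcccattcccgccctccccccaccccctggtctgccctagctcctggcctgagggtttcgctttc
Ltbr, chr6:125313886-125314135, minus strand: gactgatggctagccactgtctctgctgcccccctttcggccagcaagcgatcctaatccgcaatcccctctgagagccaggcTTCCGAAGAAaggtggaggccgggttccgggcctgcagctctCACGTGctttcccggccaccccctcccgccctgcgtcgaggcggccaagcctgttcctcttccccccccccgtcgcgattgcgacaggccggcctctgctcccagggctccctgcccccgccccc
In Fas the capitals mark TTCTGGGAA, 93 to 85 bases before the start, and hypoxia cores at 110 to 105 and 57 to 53 bases before it. The first of these, CACGTG, reads ACGTG on both strands. Tnfrsf1b holds TTCCCGGAA, 181 to 173 bases before its start, and 1 GCGTG core, and Ltbr holds the wider form TTCCGAAGAA and a CACGTG. TTCNNNGAA also occurred in the window of Tnfrsf1a and in that of the downstream start of Tnfrsf9, which alone among the 9 held the NF-κB consensus, and Tnfrsf11a, Tnfrsf14, Tnfrsf21 and the upstream start of Tnfrsf9 held neither STAT form. Of all 32851 windows of this length, 7.02% held TTCNNNGAA, 5.85% TTCNNNNGAA, 16.6% ACGTG, 28.2% GCGTG and 7.25% the NF-κB consensus. These matches describe letters, and binding was not measured in these libraries.

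**Figure D1:**
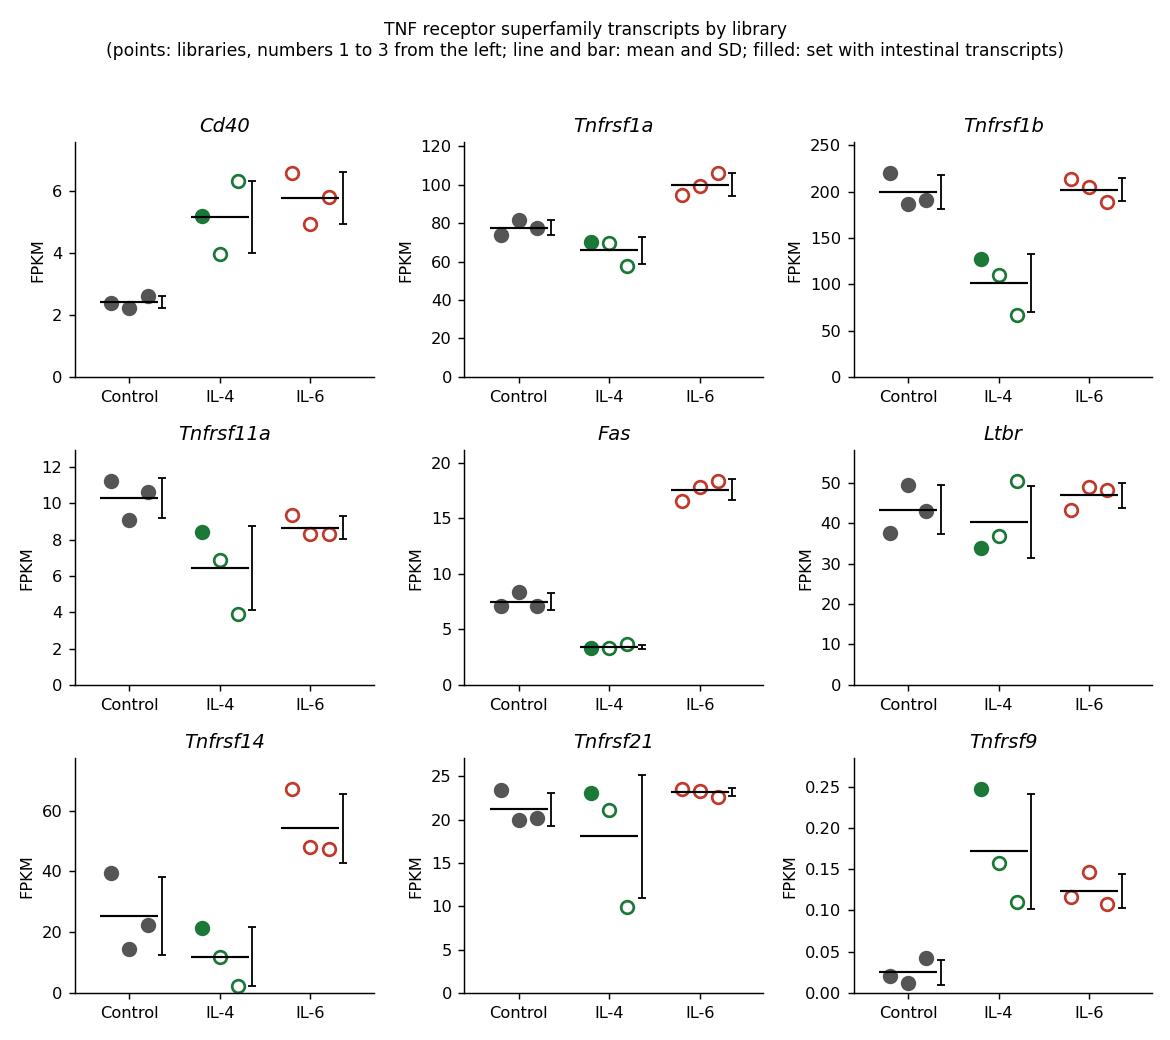
FPKM (vertical axes, linear from 0, a scale for each gene) of the 9 receptors in each library of control, IL-4-treated and IL-6-treated Mϕs, with the mean as a line and the SD as a bar. Filled points are the 4 libraries with Paneth and goblet cell transcripts. Cd40 points of both cytokines lie above all control points, and Fas points separate into 3 groups, lowest under IL-4 and highest under IL-6. IL-4 #3 is the lowest library for Tnfrsf1a, Tnfrsf1b, Tnfrsf11a, Tnfrsf14 and Tnfrsf21.

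Cd40 was higher with either cytokine, and its levels under IL-4 and IL-6 overlapped. Its FPKM were 2.397, 2.23 and 2.62 in control libraries #1 to #3, 5.21, 3.98 and 6.33 under IL-4, and 6.60, 4.94 and 5.83 under IL-6. Every library of either cytokine lay above every control library, by a factor of 2.14 for the means under IL-4 and of 2.396 under IL-6. The log2 fold change was 1.05 under IL-4 (95% interval 0.60 to 1.49, limma adjusted p = 0.0057) and 1.22 under IL-6 (0.77 to 1.67, adjusted p = 0.00714). IL-6 against IL-4 gave 0.17 (interval −0.27 to 0.62, adjusted p = 0.493), an interval that spans 0. Leaving out control #2 put the IL-4 value at 0.99 and leaving out IL-4 #3 at 0.89, both below the log2 fold change of 1 that a call required. With a term for the library set, neither comparison with control passed (adjusted p = 0.0581 for IL-4 and 0.158 for IL-6), although the log2 fold changes were 1.08 and 1.27. Within the set that holds the controls, IL-4 #1 had 2.16 times the control mean. CD40 is also a receptor of B cells and dendritic cells. All 8 B cell markers were detected, with summed FPKM of 113 to 164 in control, 93.2 to 121 under IL-4 and 104 to 215 under IL-6. Of the 8 dendritic cell markers, Zbtb46 and Xcr1 stayed under 0.5 FPKM in every library and the list summed to 6.08 to 7.21, 3.49 to 4.31 and 5.60 to 10.1. Under IL-4, 0 of the 8 B cell markers and 4 of the 8 dendritic cell markers had a mean above control, and under IL-6 2 and 5 did. Siglech, of plasmacytoid dendritic cells, had means of 3.33, 0.96 and 2.99 FPKM, while Zbtb46 had 0.0793, 0.385 and 0.152 and Fscn1, of mature dendritic cells, 0.201, 0.283 and 1.25. Under IL-6 the highest sum of either list lay above the highest control sum. The part of these cells in the Cd40 values was not tested.

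Of the death domain receptors, Fas moved in opposite directions with the 2 cytokines. Fas, whose ligand triggers apoptosis of the cell that carries it, had 7.08, 8.37 and 7.07 FPKM in control, 3.36, 3.28 and 3.65 under IL-4, and 16.6, 17.8 and 18.4 under IL-6. None of the 3 groups overlapped with another. Fas fell under IL-4 to 0.457 times the control mean (log2 fold change −1.10, limma adjusted p = 0.000368) and rose under IL-6 to 2.34 times it (1.22, adjusted p = 0.00069). Between the cytokines it differed by a factor of 5.13 (log2 fold change 2.33, interval 2.05 to 2.60, adjusted p = 4.82e-06). All 3 calls held in each of the 9 fits that left out 1 library. Against IL-4 #2 and #3 alone, the libraries of its own set, the IL-6 mean of Fas was 5.08 times higher, and IL-4 #1 had 0.448 times the mean of the controls of its set. A term for the library set left IL-6 against control at 1.18 with an adjusted p of 0.0595.

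Tnfrsf1a, the TNF receptor that most cells carry, had 73.9, 81.8 and 77.3 FPKM in control, 70.4, 69.7 and 57.9 under IL-4, and 94.5, 99.6 and 106.2 under IL-6. The groups did not overlap, in the order IL-4, control, IL-6, but the steps were small. IL-6 against IL-4 gave 0.60 on the log2 scale (adjusted p = 0.0052), below the size a call required. Against control neither cytokine passed, with −0.24 for IL-4 (adjusted p = 0.179) and 0.37 for IL-6 (adjusted p = 0.108, interval 0.10 to 0.63). IL-4 #3 was the lowest library for Tnfrsf1a, and the IL-4 value ranged from −0.29 to −0.15 when 1 library was left out. Tnfrsf21, known for its part in neuronal death and in T cell responses, had 23.4, 19.9 and 20.2 FPKM in control, 23.1, 21.1 and 9.91 under IL-4, and 23.5, 23.3 and 22.6 under IL-6. It passed in no comparison, and only IL-4 #3 lay apart. The IL-4 against control value was −0.32 (adjusted p = 0.458) with that library and 0.066 (adjusted p = 0.627) without it, and a term for the library set turned it to 0.13. That term moved IL-6 against control from 0.13 to 0.81 (adjusted p = 0.306).

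Among the TRAF-binding receptors, Tnfrsf1b was the most abundant transcript of the 9 and was lower under IL-4 than in the other conditions. It had 220.1, 186.1 and 191.0 FPKM in control, 127.2, 110.4 and 66.7 under IL-4, and 213.1, 204.9 and 188.5 under IL-6. All IL-4 libraries lay below all others, while control and IL-6 libraries overlapped. With IL-4 the mean was 0.51 times that of control (log2 fold change −1.02, interval −1.54 to −0.50, limma adjusted p = 0.0128), and IL-6 exceeded IL-4 by a factor of 1.99 (1.04, adjusted p = 0.00891). IL-6 against control gave 0.02 with an interval of −0.50 to 0.54 (adjusted p = 0.963), and 0.59 with a term for the library set (adjusted p = 0.312). The IL-4 values stood near the limit of a call. Without IL-4 #3 they were −0.74 against control (adjusted p = 0.00154) and 0.77 for IL-6 against IL-4, without control #1 the adjusted p of the former was 0.0506, and with a term for the library set it was −0.64 (adjusted p = 0.205). Within the sets, IL-4 #1 had 0.639 times the control mean, and the IL-6 mean was 2.28 times that of IL-4 #2 and #3.

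Tnfrsf11a, the receptor of RANK ligand, had 11.2, 9.07 and 10.6 FPKM in control, 8.45, 6.90 and 3.91 under IL-4, and 9.37, 8.30 and 8.29 under IL-6. Each IL-4 library was below each control library, but the difference of −0.74 on the log2 scale did not pass (adjusted p = 0.0729), and neither did −0.24 for IL-6 (adjusted p = 0.657) or 0.49 between the cytokines (adjusted p = 0.165). A term for the library set turned the IL-6 value to 0.45 (adjusted p = 0.437) and put that between the cytokines at 0.72 (adjusted p = 0.0477). Ltbr, which binds lymphotoxin and LIGHT and signals through the noncanonical NF-κB pathway, had 37.7, 49.5 and 43.0 FPKM in control, 33.8, 36.8 and 50.5 under IL-4, and 43.4, 49.0 and 48.3 under IL-6. Its groups overlapped in every comparison, and the 3 intervals reached from −0.51 to 0.63 on the log2 scale. Its IL-6 against control value was 0.12, and −0.23 with a term for the library set.

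Tnfrsf14 encodes HVEM, the receptor of LIGHT (Tnfsf14) and a partner of BTLA, and its libraries within a group lay far apart. It had 39.5, 14.4 and 22.2 FPKM in control, 21.5, 11.9 and 2.16 under IL-4, and 67.1, 47.9 and 47.4 under IL-6. The IL-6 libraries lay above all others, and control and IL-4 overlapped. IL-6 against IL-4 was called with a log2 fold change of 2.68 (interval 0.94 to 4.42, limma adjusted p = 0.0271), a ratio of means of 4.56. This call was lost in each fit that left out 1 IL-6 library, with adjusted p of 0.088 without #1, 0.0675 without #2 and 0.0677 without #3. It was kept without IL-4 #3, the lowest library, at 1.73, and without IL-4 #1 at 3.36, which compares libraries of 1 set. Neither cytokine passed against control, with −1.48 for IL-4 (adjusted p = 0.197) and 1.19 for IL-6 (adjusted p = 0.44). A term for the library set put these at −0.11 and 3.25 (adjusted p = 0.97 and 0.213). Library #1 had the highest Tnfrsf14 of each condition.

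Tnfrsf9, the T cell co-stimulator 4-1BB, was near the limit of detection. Its libraries held 2, 1 and 4 fragments in control, 23, 13 and 12 under IL-4, and 11, 13 and 9 under IL-6, at 0.0123 to 0.247 FPKM. Its mean was below the filter of 0.5 FPKM, so its test comes from the fit without the filter. Every cytokine library held more fragments than every control library. Per sequenced fragment, IL-4-treated Mϕs held 6.57 times (exact 95% interval 2.95 to 17.2) and IL-6-treated Mϕs 4.80 times (2.09 to 12.8) the control, and IL-6 held 0.731 times the level of IL-4 (0.454 to 1.16). These intervals cover counting error only. The log2(FPKM + 0.1) differences were 1.10 under IL-4 (limma adjusted p = 0.0284) and 0.84 under IL-6 (adjusted p = 0.142). The former did not pass with the replicate number as a block (adjusted p = 0.0663) or with the 2 groups alone (adjusted p = 0.0754). Nor did it pass in 6 of the 9 fits that left out 1 library, whose adjusted p reached 0.0978. T and NK cells are its best known source. Their 8 markers summed to 0.671 to 0.774 FPKM in control, 22.9 to 43.6 under IL-4 and 0.970 to 1.21 under IL-6, of which Gzma made up a mean of 29.3 under IL-4. All 8 had a higher mean under IL-4 than in control, and for 6 of them the IL-4 libraries were all above the highest control. Cd3e had means of 0.0506 in control and 0.141 under IL-4, Cd3d 0.135 and 0.633, Cd8a 0.112 and 0.633, and Trac 0.206 and 0.867. Under IL-6, 6 of the 8 had a mean above control. The part of these cells in the Tnfrsf9 values was not tested.

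**Figure D2:**
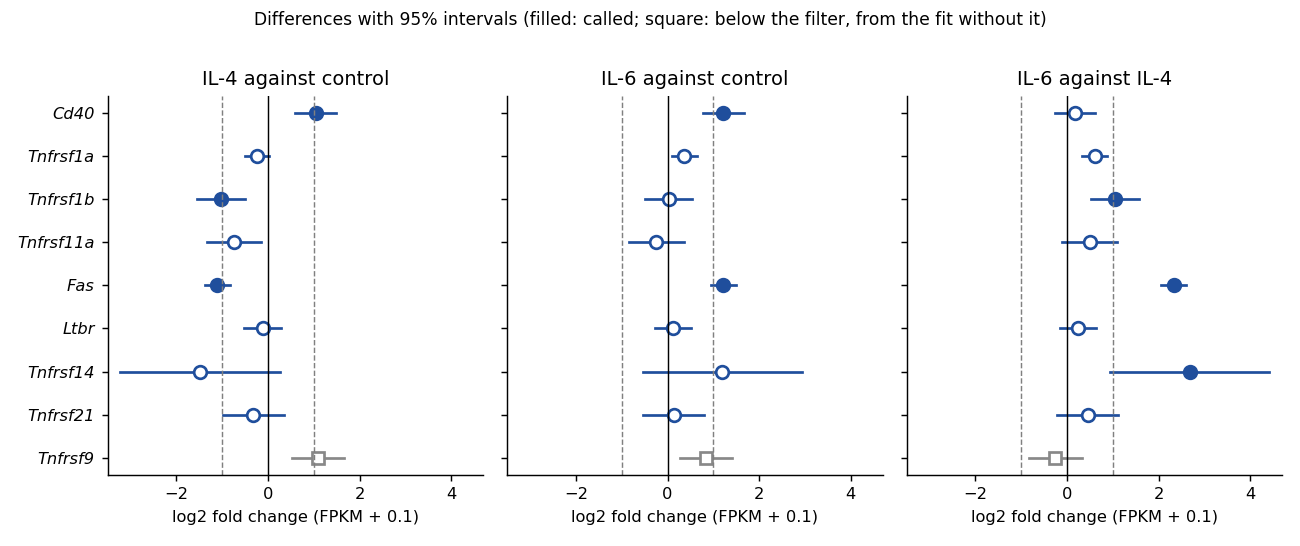
Log2 fold changes on the log2(FPKM + 0.1) scale (horizontal axes) with 95% intervals for each receptor in the 3 comparisons, where filled points had an adjusted p under 0.05 and lay beyond the dashed lines at 1 and −1. Cd40 lies to the right of 0 in both comparisons with control, Fas lies left under IL-4 and right under IL-6, and Tnfrsf14 has the widest intervals.

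Of the 8 receptors that passed the filter, 1 was called higher (Cd40) and 2 lower (Fas, Tnfrsf1b) under IL-4, where 5.02% of all 12824 genes tested were called higher and 8.89% lower. With IL-6, 2 were called higher (Cd40, Fas) and 0 lower, against 3.49% and 1.89% of all genes. Between the cytokines 3 were higher under IL-6 (Fas, Tnfrsf14, Tnfrsf1b) and 0 lower, against 13.6% and 6.82%. In both comparisons that involve IL-6, 0 receptors were lower at an unadjusted limma p under 0.05 and 0 were called lower by voom on the recovered fragments. At an adjusted p under 0.05 alone, 3, 2 and 4 of the 8 passed, beside 24.8%, 8.4% and 34.1% of all genes. The median log2 fold change of the 8 was −0.53, 0.25 and 0.55, and that of all genes was −0.20, −0.00 and 0.22. Both comparisons with control use the same 3 control libraries. Rescaling each library by its median ratio moved the median of all genes under IL-4 to −0.00, and the balance of calls with it, from 644 higher and 1140 lower to 838 and 868. On that scale Fas under IL-4 stood at −0.91 (adjusted p = 0.00509) and Tnfrsf1b at −0.82 (adjusted p = 0.00764), both short of the size of a call, and Cd40 at 1.25. Tnfrsf1b for IL-6 against IL-4 stood at 0.81 (adjusted p = 0.00565) on it and was no call either.

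**Figure D3:**
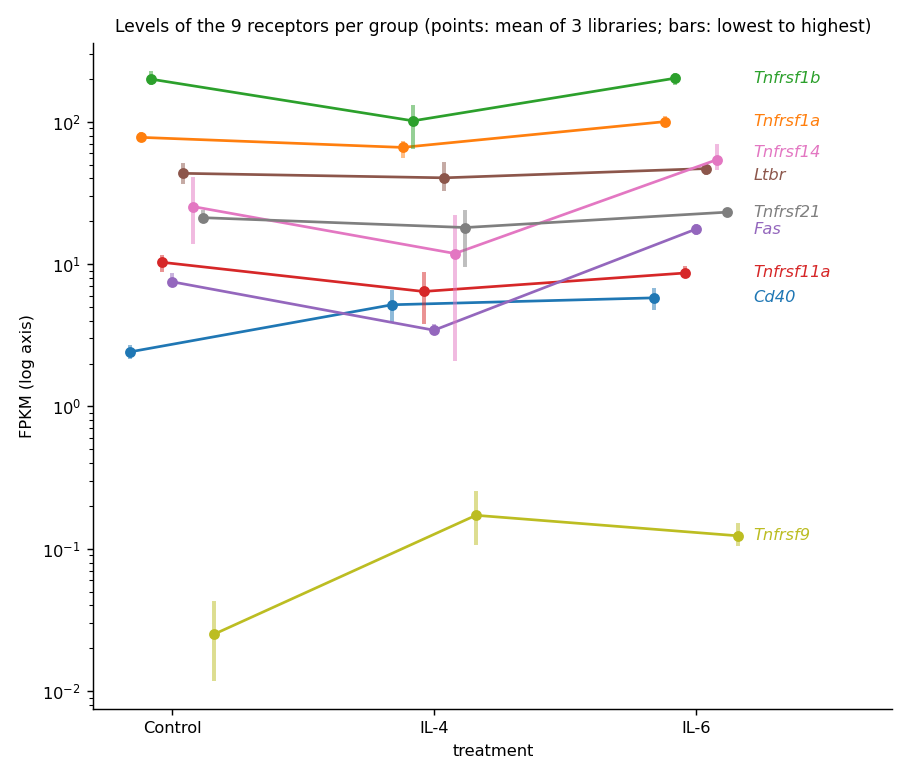
Mean FPKM (vertical axis, log scale) of the 9 receptors in control, IL-4-treated and IL-6-treated Mϕs, with bars from the lowest to the highest library. Tnfrsf1b is at the top and Tnfrsf9 at the bottom in each group, and the lines of Fas and Cd40 cross between control and IL-4.

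On the FPKM scale, Tnfrsf1b was highest and Tnfrsf9 lowest in every condition. In control Mϕs the order of mean levels was Tnfrsf1b (199.1 ± 18.3), Tnfrsf1a (77.7 ± 3.99), Ltbr (43.4 ± 5.95), Tnfrsf14 (25.4 ± 12.8), Tnfrsf21 (21.2 ± 1.92), Tnfrsf11a (10.3 ± 1.11), Fas (7.51 ± 0.746), Cd40 (2.42 ± 0.194) and Tnfrsf9 (0.0251 ± 0.0152, SD, n = 3). Ltbr and Tnfrsf14 overlapped, as did Tnfrsf14 and Tnfrsf21, so these neighbours did not differ beyond their spread. With IL-4, Cd40 (5.18 ± 1.18) passed above Fas (3.43 ± 0.192) without overlap, and overlaps joined Tnfrsf1b to Tnfrsf1a, Tnfrsf21 to Tnfrsf14, Tnfrsf14 to Tnfrsf11a and Tnfrsf11a to Cd40. With IL-6, Tnfrsf14 (54.1 ± 11.2) took the third place by its mean, but it overlapped with Ltbr and was above it in 1 of the 3 libraries, IL-6 #1, and Fas (17.6 ± 0.915) stood above Tnfrsf11a (8.66 ± 0.621). The ratio of Fas to Cd40 within a library was 3.13 ± 0.547 in control, 0.681 ± 0.128 under IL-4 and 3.09 ± 0.552 under IL-6. That of Tnfrsf1b to Tnfrsf1a was 2.58 ± 0.364, 1.51 ± 0.333 and 2.03 ± 0.241. All 9 transcripts together summed to 387 ± 24.5 FPKM in control, 252.9 ± 47.1 under IL-4 and 459 ± 14.5 under IL-6, and Tnfrsf1b made up 51.4%, 39.4% and 44.1% of it.

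Other genes followed the 3 receptors the study drew together, by Pearson's r of log2(FPKM + 0.1) over the 9 libraries, which fall into 3 treatment groups. The pattern of Cd40 was most like that of Tppp3 (r = 0.984), Gm12416 (0.952) and Slc6a12 (0.951). Tppp3, a tubulin-binding protein, had 0.324 FPKM in control, 1.05 under IL-4 and 1.01 under IL-6. Tnfrsf1a was most like Ppbp (0.994), a platelet and Mϕ chemokine, Ighv1-22 (0.993) and Serpina3b (0.991), and Tnfrsf1b was most like Mpeg1 (0.998), which encodes the pore-forming perforin-2 of Mϕs, Ncapg2 (0.996) and Gm28913 (0.995). Mpeg1 had 1244 FPKM in control, 455 under IL-4 and 1218 under IL-6. Pearson's r leaves the size of a change aside. Ppbp had means of 47.6 FPKM in control, 21.8 under IL-4 and 285 under IL-6, against 77.7, 66.0 and 100.1 for Tnfrsf1a. Among the receptors, r was 0.914 for Tnfrsf1b and Tnfrsf11a and 0.934 for Tnfrsf1a and Fas, against −0.38 for Cd40 and Tnfrsf1b.

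Several ligands of the receptors were called higher under IL-6. Of 18 ligand genes 7 passed the filter, and under IL-6 against control 3 of the 7 were called higher and 0 lower by limma (2 lower at an unadjusted p under 0.05, 0 called by voom), where 3.49% and 1.89% of all genes were. Tnfsf14, which encodes LIGHT, the ligand of HVEM and of the lymphotoxin β receptor, had 2.02 to 2.33 FPKM in control, 0.876 to 1.16 under IL-4 and 17.1 to 22.5 under IL-6, a log2 fold change of 3.16 under IL-6 (limma adjusted p = 2.91e-05) and −1.05 under IL-4 (adjusted p = 0.00236). Tnfsf9, the ligand of 4-1BB, went from 0.838 ± 0.143 FPKM in control to 4.36 ± 0.384 under IL-6 (2.26, adjusted p = 0.00201). Tnf had 8.66 ± 0.246 FPKM in control, 4.73 ± 0.955 under IL-4 (−0.88, adjusted p = 0.00536, below the size of a call) and 22.8 ± 2.01 under IL-6 (1.38, adjusted p = 0.0017). With a term for the library set Tnfsf14 remained called under IL-6 (adjusted p = 0.00357), and Tnfsf9 (1.76, adjusted p = 0.132) and Tnf (1.54, adjusted p = 0.0615) did not. With IL-4, 2 ligands were called lower (8.89% of all genes were), Tnfsf14 and Tnfsf13, the gene of APRIL (13.5 ± 0.399 to 4.57 ± 1.65 FPKM). Neither was called with that term (adjusted p = 0.0509 and 0.0523), and Tnfsf14 fell short of the size of a call without control #2 or IL-4 #3. IL-6 against IL-4 called 5 higher, namely Tnfsf14, Tnfsf15, Tnfsf9, Tnf and Ltb, where 13.6% of all genes were. The call of Ltb (1.24, adjusted p = 0.0385) held in 3 of the 9 fits that left out 1 library, those without control #1, control #2 or IL-4 #3, reached an adjusted p of 0.112 without IL-6 #2, and was lost with a term for the library set (adjusted p = 0.0848). Tnfsf12, the gene of TWEAK and the most abundant ligand transcript in control and under IL-4, was at 42.1 ± 8.13, 44.5 ± 15.9 and 21.7 ± 1.44 FPKM and was not called. Values of Tnfsf12 and Tnfsf13 are uncertain, because 46.8% and 57.3% of their 50-base stretches also occur in the read-through gene Tnfsfm13 and other transcripts. The ligands of CD40, RANK and Fas were at or near 0. Cd40lg held 0 to 2 fragments per library, Tnfsf11 0 to 1 and Fasl 0 to 5 in control, 15 to 29 under IL-4 and 3 to 11 under IL-6.

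Of 19 other receptors of the superfamily 10 were tested, and under IL-4, 5 of them were called higher and 1 lower, where 5.02% and 8.89% of all genes were. The rises were in Tnfrsf18, the gene of GITR (0.35 ± 0.137 to 1.57 ± 0.176 FPKM, log2 fold change 1.93, adjusted p = 0.00106), Tnfrsf26 (1.83), Tnfrsf22 (1.47), Tnfrsf12a, the receptor of TWEAK (4.24 ± 0.993 to 11.1 ± 3.03 FPKM, 1.36, adjusted p = 0.00812), and Tnfrsf23 (1.10). Tnfrsf22 and Tnfrsf23 encode decoy receptors for TRAIL and lie beside Tnfrsf26 on chromosome 7. They share 27.4% and 18.0% of their 50-base stretches with other transcripts, mainly each other's, so their 2 values are not independent. Tnfrsf13b, the gene of TACI, was called lower (16.7 ± 0.594 to 8.23 ± 0.812 FPKM, −1.02), and fell short of the size of a call without control #1 or IL-4 #3 and with a term for the library set (−0.87). Tnfrsf23 stood at 0.88 without IL-4 #1, and the call of Tnfrsf12a was lost with that term (0.91, adjusted p = 0.14). IL-6 raised Relt, an orphan relative (3.79 ± 0.191 to 10.8 ± 0.706 FPKM, 1.49, adjusted p = 0.00422), and Tnfrsf26 (1.11, adjusted p = 0.0113). Thus 2 of the 10 were called higher and 0 lower under IL-6, where 3.49% and 1.89% of all genes were. The call of Tnfrsf26 was lost without control #2 or IL-6 #2, which left 1 receptor called. With a term for the library set neither was called (adjusted p = 0.0547 for Relt and 0.088 for Tnfrsf26). Between the cytokines 1 of the 10 was called higher under IL-6, Relt (2.23), and 2 lower, Tnfrsf12a (−1.92) and Tnfrsf18 (−1.14). Of all genes 13.6% were called higher and 6.82% lower, so the count of higher ones lay near that share.

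**Figure D4:**
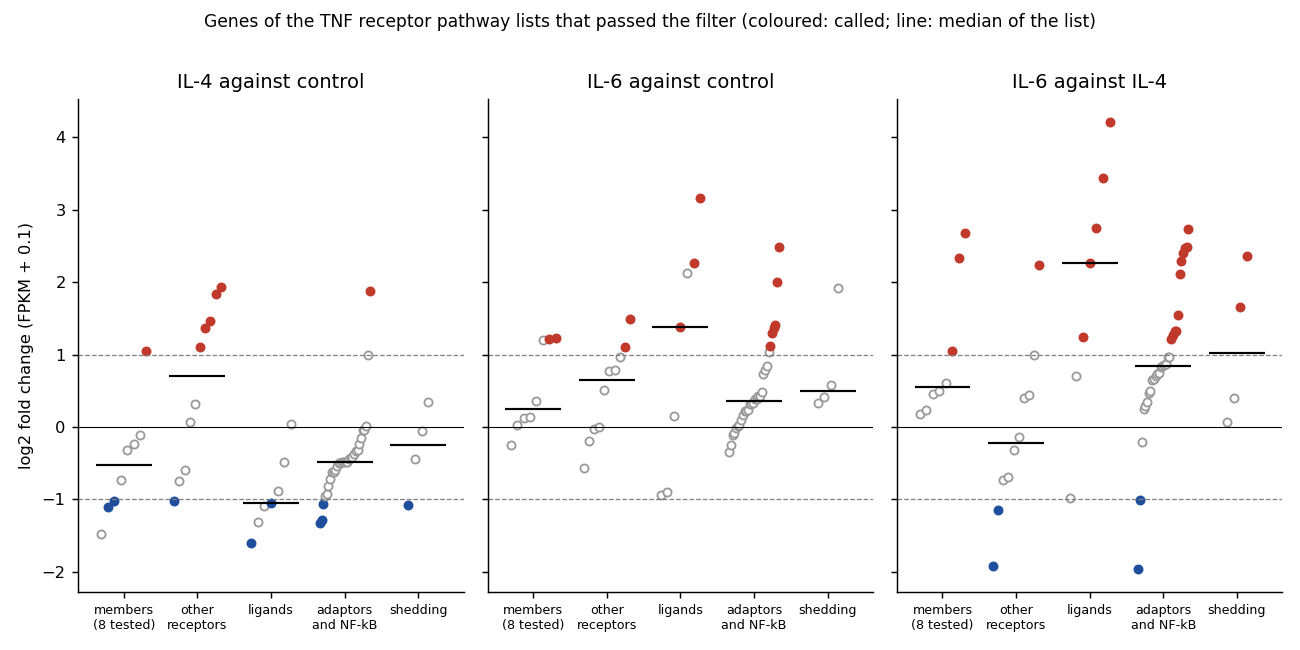
Log2 fold changes (vertical axis, log2(FPKM + 0.1) scale) of genes that passed the filter in 5 lists, the receptors described here, the other receptors, ligands, adaptors with NF-κB genes, and shedding genes, in the 3 comparisons. Coloured points were called and black lines are medians. The ligand median is −1.05 under IL-4 and 1.38 under IL-6 against control.

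Some of the adaptors, inhibitors and NF-κB genes through which the receptors signal were also called higher under IL-6. Of 31 genes 30 were tested, and 6 were called higher and 0 lower under IL-6 (1 lower at an unadjusted limma p under 0.05, 0 called by voom), 1 higher and 3 lower under IL-4, and 11 higher and 2 lower under IL-6 against IL-4. Of all genes 3.49% and 1.89%, 5.02% and 8.89%, and 13.6% and 6.82% were called in these directions. The counts under IL-4, and the count of lower ones for IL-6 against IL-4, thus lay near the shares of all genes. Traf1, an adaptor that NF-κB itself induces, had 0.466 ± 0.0528 FPKM in control, 0.476 ± 0.0865 under IL-4 and 3.06 ± 0.158 under IL-6 (log2 fold change 2.48, limma adjusted p = 0.000241). The NF-κB subunits Nfkb2 (25.3 ± 2.34 to 62.2 ± 0.99 FPKM, 1.30) and Relb (1.11), the inhibitors Nfkbie (2.00) and Nfkbia (49.9 ± 3.84 to 129 ± 13.3 FPKM, 1.36), and the ubiquitin ligase Birc3 (1.41, adjusted p = 0.0318) were the others called under IL-6. With a term for the library set, the calls of Traf1, Nfkb2, Nfkbie and Nfkbia remained (adjusted p = 0.0324, 0.0371, 0.0248 and 0.0404) and those of Relb and Birc3 did not (0.247 and 0.107). The call of Birc3 under IL-6 also was lost in 6 of the 9 fits that left out 1 library, those without any 1 of the control and IL-6 libraries, with an adjusted p of up to 0.128. IL-4 raised Traf5, an adaptor of CD40 and other receptors (3.05 ± 0.204 to 11.5 ± 0.977 FPKM, 1.88, adjusted p = 2.49e-05), and lowered Relb (−1.28), Birc3 (−1.32) and Tnip1, which restrains NF-κB (−1.07). Of these Birc3 was no call without control #1 (adjusted p = 0.068), without IL-4 #3 (−0.94) or with a term for the library set (−0.84, adjusted p = 0.258). Between the cytokines Traf3, Map3k14, Tnfaip3, Cflar and Tab2 were also higher under IL-6, by 1.21 to 1.54, and Traf5 (−1.97) and Traf3ip2 were lower. Without IL-4 #3, Cflar (0.96), Tab2 (0.86) and Traf3ip2 (−0.99) fell short of the size of a call, as did Traf3ip2 without IL-6 #1 or #2, and Cflar had an adjusted p of 0.0542 without IL-6 #1. Rela, the main subunit of canonical NF-κB, had 41.4 ± 3.55, 29.6 ± 4.92 and 46.2 ± 0.49 FPKM and was not called.

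Of 5 genes that govern the shedding of TNF and its receptors 4 were tested. Adam17, the protease that releases TNF, TNF-R1 and TNF-R2 from the surface, had 30.6 to 42.2 FPKM in control, 10.5 to 22.9 under IL-4 and 48.5 to 59.3 under IL-6. It fell by 1.07 on the log2 scale under IL-4 (adjusted p = 0.0247) and was higher under IL-6 than under IL-4 (1.65, adjusted p = 0.00272). The value under IL-4 was no call with a term for the library set (−0.63, adjusted p = 0.338), without control #1 (adjusted p = 0.090), without control #3 (adjusted p = 0.071) or without IL-4 #3 (−0.73). Timp3, its inhibitor, had 0.575 ± 0.0691, 0.52 ± 0.399 and 2.46 ± 0.44 FPKM and was called for IL-6 against IL-4 (2.36, adjusted p = 0.0151), except without IL-6 #2 or #3 (adjusted p = 0.0547 and 0.0529). Adam10 (34.8 ± 8.8, 47.3 ± 21.4 and 45.3 ± 3.33 FPKM) and Rhbdf2 (14.4 ± 1.71, 14.4 ± 4.82 and 18.2 ± 0.79 FPKM) were called in no comparison. Protein on the cell surface was not measured in these libraries.

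**Figure D5:**
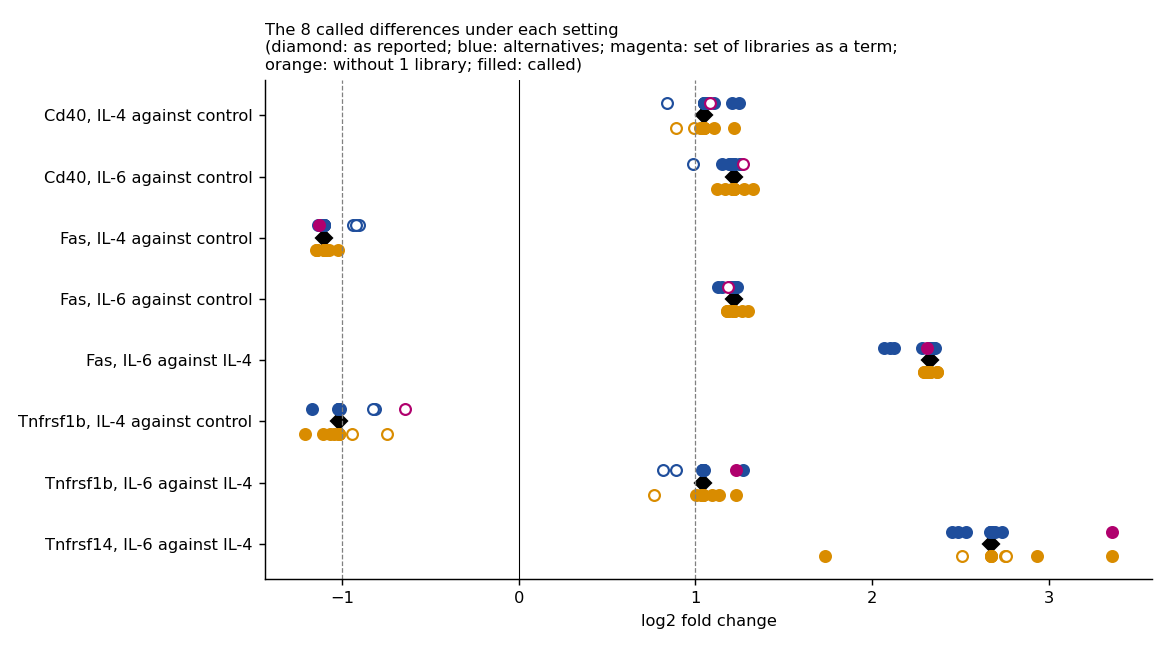
Log2 fold changes (horizontal axis) of the 8 called differences of Cd40, Fas, Tnfrsf1b and Tnfrsf14 as reported (diamonds), under alternative settings (blue), with a term for the library set (magenta) and without 1 library (orange), with filled points for those that passed the call. No point crosses 0, and the 3 Fas rows spread least when a library is left out.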

How the data were processed

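RNA-seq of 9 libraries of BM-derived Mϕs, 3 for each condition, was analysed from the values that the authors deposited, which are FPKM per gene. The methods name alignment to GRCm38 with STAR 2.4.2a and FPKM from Cufflinks 2.2.1 with GENCODE M5. With exon lengths of GENCODE M21, however, 100.0% of 141451 FPKM values above 0 were whole fragments within 0.05, so the depth of each library, and the fragments behind each value, were read back. Which program and annotation made the table is not settled. For Fas and Tnfrsf21, whose identifiers carry another version in M21, exon lengths of 1801 and 3626 bases were solved from the values. Whether counting used strand is not given in the sources used here.

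Values were transformed as log2(FPKM + 0.1), and the 12824 genes that averaged 0.5 FPKM or more were fitted with limma 3.58.1 (R 4.3.3, trend and robust eBayes, 3 groups in 1 fit) with Benjamini-Hochberg adjustment over all of them. A call needed both an adjusted p under 0.05 and a size of 1 or more on the log2 scale. All adjusted p-values come from this fit unless another is named, and fold changes of low genes are understated on this scale. For each receptor the exact two-sided permutation test of 3 libraries against 3 cannot go below p = 0.1, the value of each comparison whose groups did not overlap. The p-values measure the spread between these libraries. Named are the 9 receptors, the called genes of the lists of other receptors, ligands, adaptors and shedding genes and the 3 most abundant of each, and the 3 genes most like Cd40, Tnfrsf1a and Tnfrsf1b. The receptors and lists were chosen with earlier results of these data known.

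The libraries were divided into 2 sets at the largest gap in the summed Paneth and goblet cell transcripts. The set as a term in the fit rests on IL-4 #1 against IL-4 #2 and #3. Deviations of libraries with the same replicate number from their group means had r of 0.521, −0.415 and 0.0777 between IL-4 and control. The values were 0.408, 0.201 and 0.166 between IL-6 and control, and 0.281, −0.0612 and 0.153 between IL-6 and IL-4. Any pairing rests on the numbers in the column names. Alternatives were pseudocounts of 1 and 0.01, no filter or one at a mean of 5 FPKM, median-ratio rescaling and quantile normalization. Also used were the 2 groups compared alone, the replicate number as a block, a term for the library set and an adjusted p alone. Further alternatives were limma voom on recovered fragments and leaving out each library. Removal of trends on exon length and GC content was chosen after seeing the data. Python 3.11.15 with pandas 2.3.3 and matplotlib 3.10.9 made the tables and plots.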

Additional observations from a re-analysis of the deposited data

How the results depend on the processing

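The count of the 8 tested receptors called with IL-4 was 3 and fell to 1 with a pseudocount of 1, median-ratio rescaling or the set of libraries as a term. With IL-6 it was 2, and it was 1 with a pseudocount of 1, 1 with a mean FPKM of at least 5, which leaves Cd40 untested, and 0 with the set as a term. A pseudocount of 1 put Cd40 at 0.84 with IL-4 and 0.98 with IL-6, since it weighs down low genes. Other receptors called with IL-4 fell from 6 to 2 with a pseudocount of 1 or a mean FPKM of at least 5, and with IL-6 from 2 to 1 under the same alternatives and to 0 with the set as a term. Between the cytokines they rose from 3 to 6 of 10 by adjusted p alone, where 34.1% of all genes passed. Ligands called with IL-4 fell from 2 to 1 with a pseudocount of 1, median-ratio rescaling, quantile normalization or removal of length and GC trends and to 0 with the set as a term, those with IL-6 from 3 to 1 with the set as a term, and those between the cytokines from 5 to 2 with a mean FPKM of at least 5. Adaptor and NF-κB genes called with IL-4 rose from 4 to 12 of 30 by adjusted p alone, where 24.8% of all genes passed. The causes of the changes with the set were not tested.

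Leaving out each library gave 1 to 3 receptors called with IL-4, 2 in each fit with IL-6 and 2 to 3 between the cytokines. Other receptors ranged over 5 to 6, 1 to 2 and 3 to 4, ligands over 1 to 3, 3 to 4 and 4 to 5, and adaptors over 3 to 5, 5 to 7 and 10 to 15. The lowest receptor count with IL-4, 1, was without IL-4 #3. Tnfrsf21 with IL-4 reversed from −0.32 to 0.13 with the set as a term and ranged from −0.54 to 0.066 when a library was left out, the latter without IL-4 #3. A term for the set also changed the sign of IL-6 against control for Tnfrsf11a (−0.24 to 0.45) and Ltbr (0.12 to −0.23), and median-ratio rescaling that of Ltbr under IL-4 (−0.12 to 0.085) and of Cd40 between the cytokines (0.17 to −0.053), none of them called. Of the called values, Tnfrsf1b with IL-4 had an adjusted p of 0.055 in a fit of those groups alone, and Tnfrsf14 between the cytokines 0.0596 in such a fit and 0.0527 without a filter. The replicate block left the number of called receptors at 3, 2 and 3 and changed the call of no tested receptor. Tnfrsf9 with IL-4, below the filter and so not counted, had a limma adjusted p of 0.0663 with it (log2 fold change 1.10). Depth limits Tnfrsf9, at 1 to 23 fragments per library.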
